A study of Mus musculus with 24 samples.

Results

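The 10 genes examined here belong to the pseudouridylation machinery of sorted mouse hematopoietic stem cells (HSCs), and were taken by name from 2 groups: the box H/ACA ribonucleoprotein genes Dkc1, Nhp2, Nop10, Gar1, Naf1 and Shq1, and the RluA-type synthase genes Rpusd1, Rpusd2, Rpusd3 and Rpusd4. All 10 were found among the 55487 gene IDs of the count tables, and their choice used no threshold on a measured value. The series concerns PUS10, a stand-alone pseudouridine synthase, in the aging of HSCs, and holds 24 Smart-seq2 libraries in 3 experiments. Cells overexpressing PUS10 (PUS10-OE, n = 3) were set against cells carrying a vector (Vector, n = 3). A knockdown of miR-139, a microRNA, gave the miR139-KD libraries (n = 6), with a non-target control (NTC, n = 6). Libraries labelled Pus10-KO (n = 3) were set against libraries labelled Pus10-WT (n = 3). The labels give the genotype and the cell type only. The age, sex and strain of the mice, the vector, the knockout allele, any culture or transplantation, and the number of animals behind each group are not given in the labels.

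Pseudouridine, an isomer of uridine, is made in RNA by enzymes that work alone or by ribonucleoproteins that are guided to their target by a box H/ACA RNA. In the guided particles dyskerin, encoded by Dkc1, is the catalytic subunit and works with NHP2, NOP10 and GAR1, while NAF1 and SHQ1 act during assembly and leave before the particle is mature. The same core proteins hold the telomerase RNA, and inherited defects of several of them cause the human bone marrow failure syndrome dyskeratosis congenita. The RPUSD proteins resemble the bacterial RluA enzymes and need no guide RNA. In human cells RPUSD3 and RPUSD4 act in mitochondria, RPUSD4 on the large ribosomal RNA.

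In GRCm38 coordinates of the GENCODE M21 annotation, the core genes are Dkc1 (ENSMUSG00000031403.14) at chrX:75095854-75109777, Nhp2 (ENSMUSG00000001056.3) at chr11:51619735-51623714, Nop10 (ENSMUSG00000027133.3) at chr2:112261926-112263269 and Gar1 (ENSMUSG00000028010.16) at chr3:129824912-129831396. The assembly factors are Naf1 (ENSMUSG00000014907.10) at chr8:66860217-66890564 and Shq1 (ENSMUSG00000035378.17) at chr6:100568256-100671157. The synthases are Rpusd1 (ENSMUSG00000041199.3) at chr17:25727670-25731464, Rpusd2 (ENSMUSG00000027324.1) at chr2:119034790-119039769, Rpusd3 (ENSMUSG00000051169.14) at chr6:113415319-113419340 and Rpusd4 (ENSMUSG00000032044.4) at chr9:35267865-35277731. Gar1, Shq1 and Rpusd3 lie on the minus strand and the other 7 on the plus strand, and all 10 are protein-coding.

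The sequences that bear on the miR-139 experiment and on the pair of core genes that varied together are given first. Both mature strands of mouse miR-139 (RefSeq, GRCm38.p6, chromosome 7, plus strand) are printed with the seed, bases 2 to 8, in capitals; the 5p strand lies at chr7:101475382-101475403 and the 3p strand at chr7:101475418-101475439.
mmu-miR-139-5p: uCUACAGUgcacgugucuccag
mmu-miR-139-3p: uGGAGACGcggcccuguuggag
The match to the 5p seed, ACTGTAG, was present in the 3' untranslated region (UTR) of 2312 of 21021 annotated genes (11%) and in 0 of the 10 members. The match to the 3p seed, CGTCTCC, was present in 663 genes (3.15%) and in 1 member, Shq1, at base 545 of a 3' UTR of 5010 bases. That stretch of Shq1 (chromosome 6, minus strand) is shown with the match in capitals.
Shq1 site: ttccccatCGTCTCCagctgtcc
A match is a run of letters and not a shown target site.

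Promoter windows from 250 bases before to 50 bases after the start site were found in the RefSeq table (GRCm38.p6) for 9 of the 10 members; Naf1 was the other. They were searched on both strands for CACGTG (E-box), CCGGAAG (ETS) and GCGCA followed by any base and GCGC (NRF1), motifs that do not overlap each other in these windows. Over all 32851 promoter windows of the same length, 7.15% held the E-box, 8.86% the ETS motif and 4.6% the NRF1 motif. Nhp2 and Nop10, the pair of members whose levels moved together most closely, are printed, with a motif in capitals where one was present (Nhp2 at chr11:51619523-51619822, Nop10 at chr2:112261676-112261975, both plus strand).
Nhp2 promoter: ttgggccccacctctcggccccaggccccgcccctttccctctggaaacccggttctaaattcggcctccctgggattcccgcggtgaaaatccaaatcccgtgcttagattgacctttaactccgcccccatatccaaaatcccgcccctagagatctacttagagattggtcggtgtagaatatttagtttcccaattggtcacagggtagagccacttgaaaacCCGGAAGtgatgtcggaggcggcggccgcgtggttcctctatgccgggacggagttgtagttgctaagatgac
Nop10 promoter: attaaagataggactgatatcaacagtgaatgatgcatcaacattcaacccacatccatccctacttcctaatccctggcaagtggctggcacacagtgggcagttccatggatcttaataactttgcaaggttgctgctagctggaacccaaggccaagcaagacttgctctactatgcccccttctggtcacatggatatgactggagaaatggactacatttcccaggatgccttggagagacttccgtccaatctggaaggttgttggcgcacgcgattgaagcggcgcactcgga
Nhp2 held 1 ETS motif, 23 bases before the start site, and Nop10 held none of the 3 motifs. The GC content of the windows was 55.3% for Nhp2 and 49.3% for Nop10. Among the other members Gar1 held 1 ETS motif, Shq1 held 2, Rpusd4 held 2 E-boxes, Rpusd1 held 1 NRF1 motif, and Dkc1, Rpusd2 and Rpusd3 held none of the 3.

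Counts over all genes ranged from 40.9 to 42.6 M (M, mega) in PUS10-OE, 34.2 to 47.3 M in Vector, 9.87 to 14.4 M in miR139-KD, 11.8 to 14.7 M in NTC, 11.9 to 18.2 M in Pus10-KO and 14.5 to 16.5 M in Pus10-WT. Of 9 HSC marker genes, 9 were detected in every library of each group except NTC, where 7 were. Their summed level was 595 to 751 CPM in PUS10-OE, 629 to 695 CPM in Vector, 556 to 708 CPM in miR139-KD and 380 to 650 CPM in NTC. It was higher in the knockout experiment, at 2184 to 2434 CPM in Pus10-KO and 2077 to 2397 CPM in Pus10-WT. The part of these markers in differences between experiments was not tested. Pus10, the targeted gene, stood at 285, 246 and 242 TMM-normalised CPM (counts scaled to the size of the library) in PUS10-OE and at 53.6, 92.8 and 81.5 CPM in Vector (log2 fold change 1.76, SE 0.197, edgeR adjusted p = 0.278, DESeq2 adjusted p = 7.46e-15). In Pus10-KO it stood at 35.6, 33.7 and 36.3 CPM, against 19.6, 31.8 and 33.8 CPM in Pus10-WT (log2 fold change 0.31, SE 0.279, edgeR adjusted p = 0.951). The transcript was therefore not lower in the libraries labelled Pus10-KO, and whole-gene counts cannot show whether a part of the gene was deleted. Pde2a, the gene that carries miR-139, was at most 1.07 CPM in miR139-KD and 1.58 CPM in NTC and passed the filter on low counts in 0 of 3 fits.

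Per summed exon length, the core genes Nhp2 and Nop10 were the most abundant members in all 6 groups, and the core genes did not stand at equal levels. Levels between genes were compared as TPM, the transcript share computed from the counts and the summed exon length of each gene. This length takes in all annotated exons, 4121 bases for Dkc1, 1146 for Nhp2 and 1109 for Nop10. The order of genes and the ratios between them depend on it. Without it Dkc1 was highest in Vector, at a mean of 510 CPM against 408 CPM for Nhp2 and 374 CPM for Nop10. In PUS10-OE Nhp2 averaged 1224 ± 33.2 TPM, Nop10 1070.3 ± 93.6 TPM and Dkc1 299.8 ± 27.2 TPM (SD, n = 3), and the libraries of these 3 genes did not overlap. In Vector Nhp2 averaged 968 ± 30.7 TPM and Nop10 918 ± 31.0 TPM, which overlapped, above Dkc1 at 337 ± 32.2 TPM (SD, n = 3). The order of Nhp2, Nop10 and Dkc1 was the same in the miR-139 experiment, with 995, 858 and 155 TPM in miR139-KD and 1076, 1026 and 161 TPM in NTC. In the knockout experiment Nop10 led, at 785 ± 70.6 TPM in Pus10-KO and 787 ± 111 TPM in Pus10-WT. Nhp2 came next there, at 474 ± 29.6 TPM in Pus10-KO and 434 ± 79.6 TPM in Pus10-WT (SD, n = 3 each).

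**Figure D1:**
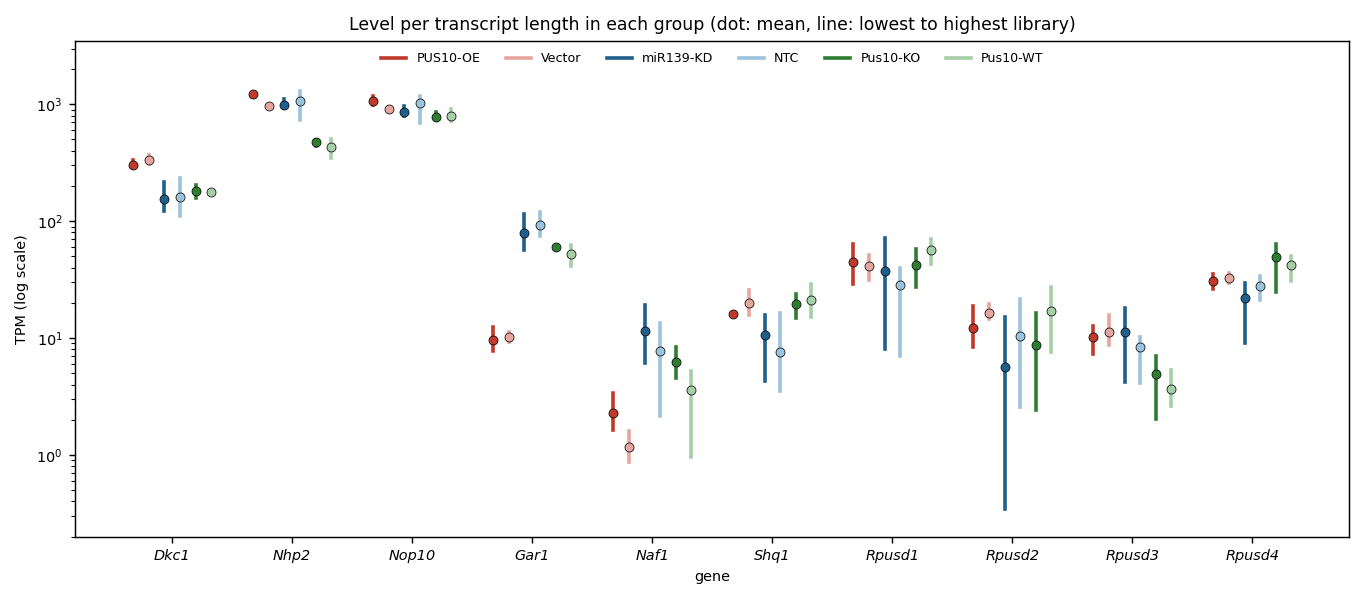
Levels per summed exon length (TPM, log axis) of the 10 members in each group. Dots are group means and lines run from the lowest to the highest library. Nhp2 and Nop10 lie highest in every group, and the means of Gar1 and Naf1 lie lower in PUS10-OE and Vector than in the other 4 groups.

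The other members were lower. Rpusd1 and Rpusd4 had the highest mean TPM of the RluA-type synthases in all 6 groups, with a limit for Rpusd3 given below. Rpusd1 averaged between 28.2 TPM in NTC and 56.6 TPM in Pus10-WT, and Rpusd4 between 21.98 TPM in miR139-KD and 49.6 TPM in Pus10-KO. The libraries of Rpusd1 and Rpusd4 overlapped in every group. Rpusd2 averaged from 5.63 to 17.0 TPM and Rpusd3 from 3.69 to 11.3 TPM. Among the assembly factors, Shq1 averaged from 7.61 to 21.3 TPM and Naf1 from 1.17 to 11.6 TPM. Rpusd3 is the least certain of these values, because 65.2% of its exon bases are shared with the antisense gene Gm44280 and the libraries do not mark strand. Reads on the shared bases may have been set aside as ambiguous, while its TPM divides by all of its exon bases. The TPM of Rpusd3 may thus be too low, and its rank among the synthases is not settled.

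Gar1 was the member whose level differed most between the controls of the 3 experiments. It averaged 9.53 ± 2.55 TPM in PUS10-OE and 10.3 ± 1.02 TPM in Vector (SD, n = 3 each). It averaged 79.0 ± 23.6 TPM in miR139-KD and 92.7 ± 19.0 TPM in NTC (SD, n = 6 each), and 59.5 ± 1.77 TPM in Pus10-KO and 52.4 ± 10.6 TPM in Pus10-WT (SD, n = 3 each). No library of the other 4 groups overlapped those of PUS10-OE and Vector, and NTC was 9.05-fold above Vector. The low level rested on 212 to 345 counts of Gar1 per library in PUS10-OE and Vector. Of the 4 box C/D genes, set beside it after their values were seen, Fbl, the methyltransferase, was also higher in NTC than in Vector (234 CPM in NTC and 36.9 CPM in Vector, group means of CPM scaled within each experiment). Nop56 (390.2 CPM in NTC, 726 CPM in Vector), Nop58 (276 CPM in NTC, 342 CPM in Vector) and Snu13 (314 CPM in NTC, 369 CPM in Vector) had lower means in NTC. Experiment and batch cannot be told apart here, so these differences between experiments were not tested.

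Dkc1 and Nhp2 also stood at different levels between experiments. Dkc1 was highest in PUS10-OE and Vector (300 and 337 TPM), and averaged from 155 to 182 TPM in the other 4 groups, with no overlap between the libraries of PUS10-OE and those of Pus10-KO, the next group down. Nhp2 was lowest in the knockout experiment, where its highest library (506 TPM, in Pus10-WT) lay below every library of the other 4 groups. The summed level of 6 proliferation markers (Mki67, Top2a, Ccnb1, Cdk1, Birc5 and Ube2c, all detected in every library) was also lowest there, at 132 to 379 CPM in Pus10-KO and 43.2 to 600 CPM in Pus10-WT. It was 1931 to 2602 CPM in PUS10-OE, 1640 to 2078 CPM in Vector, 1549 to 2482 CPM in miR139-KD and 1324 to 2025 CPM in NTC. The part of proliferation in the level of Nhp2 was not tested. In such bulk libraries fewer cells of a type and less RNA per cell cannot be told apart.

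As a ratio to Dkc1 within each library, the core genes gave a picture that does not depend on the scaling between libraries. The ratio of Nhp2 to Dkc1 (TPM over TPM) was 3.67, 4.47 and 4.18 in PUS10-OE, against 3.05, 2.68 and 2.93 in Vector. That of Nop10 to Dkc1 was 2.98, 4.15 and 3.69 in PUS10-OE, against 2.90, 2.47 and 2.84 in Vector. Every PUS10-OE library lay above every Vector library in both ratios, for Nop10 narrowly (2.98 against 2.90 at the nearest). By level, 8.31% of all genes tested were higher in PUS10-OE without overlap, and the share by ratio was not computed. The ratios use the same counts as the levels and are not separate evidence. The ratio of Gar1 to Dkc1 averaged 0.0323 ± 0.0107 in PUS10-OE and 0.0304 ± 0.000386 in Vector (SD, n = 3 each). It averaged 0.533 ± 0.220 in miR139-KD and 0.594 ± 0.133 in NTC (SD, n = 6 each), and 0.330 ± 0.0336 in Pus10-KO and 0.295 ± 0.0591 in Pus10-WT (SD, n = 3 each). The transcript of GAR1 was thus low beside that of its catalytic partner in one experiment, with or without PUS10 overexpression.

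**Figure D2:**
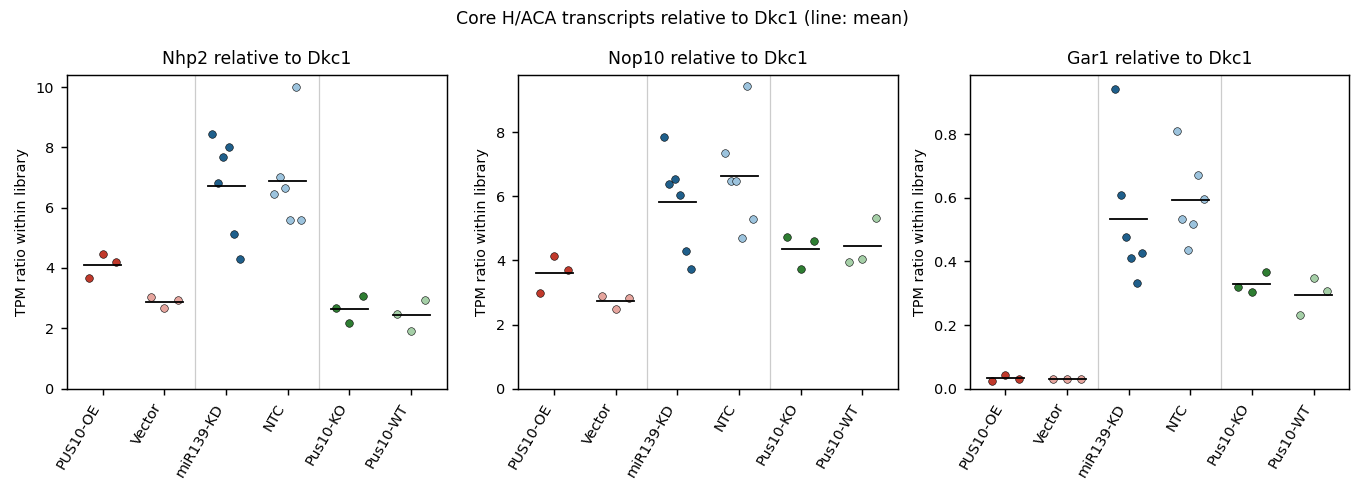
Ratio of the TPM of Nhp2, Nop10 and Gar1 to that of Dkc1 within each library (points; lines are group means), by group. Nhp2 and Nop10 lie higher relative to Dkc1 in all 3 PUS10-OE libraries than in the 3 Vector libraries, and Gar1 relative to Dkc1 stays between 0.0233 and 0.0441 in that experiment.

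The first comparison asks how the members stood when PUS10 was overexpressed. No member was called by edgeR's quasi-likelihood test with Benjamini-Hochberg adjustment over all genes, in which 0 of 14834 genes were called (0%). The overexpressed gene Pus10 was itself not called in this fit (log2 fold change 1.76, edgeR adjusted p = 0.278). The lack of calls therefore does not show that the members were unchanged. Nhp2 and Nop10, which sit together in the core around dyskerin, had the members' lowest p. At an unadjusted p under 0.05, 2 of the 10 members were counted, against 1215 of all genes (8.19%), and DESeq2 called 1 member, Nhp2, against 251 of 16058 genes (1.56%). The median log2 fold change was 0.02 for the 10 members and 0.01 for all genes tested, and 5 of the 10 were positive, against 50.7% of all genes.

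Nhp2, an RNA-binding core protein, had 543, 578 and 539 CPM in PUS10-OE, against 395, 414 and 415 CPM in Vector. All 3 PUS10-OE libraries were above all 3 Vector libraries. Its log2 fold change was 0.44 (SE 0.0757, 95% interval 0.27 to 0.61), a fold of 1.36, and edgeR gave an adjusted p of 0.322 and a DESeq2 adjusted p of 4.89e-05. Nop10, a small protein that binds dyskerin, had 427, 519.6 and 459.8 CPM in PUS10-OE, against 364, 370.2 and 389 CPM in Vector, again without overlap. Its log2 fold change was 0.32 (SE 0.0944, 95% interval 0.11 to 0.54), and edgeR gave an adjusted p of 0.440 and a DESeq2 adjusted p of 0.109. Dkc1 did not lie higher: it had 533, 466 and 464 CPM in PUS10-OE, against 466, 557 and 509 CPM in Vector, with a log2 fold change of -0.07 (95% interval -0.30 to 0.16, edgeR adjusted p = 0.948). Gar1, which completes the mature particle, had 5.15, 8.53 and 5.70 CPM in PUS10-OE and 5.83, 7.03 and 6.52 CPM in Vector, and its interval of -0.67 to 0.67 spans changes larger than those seen for Nhp2.

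Naf1, which holds dyskerin's complex until GAR1 takes its place, had 2.21, 4.204 and 2.00 CPM in PUS10-OE, against 1.00, 1.16 and 1.82 CPM in Vector. The groups did not overlap, but the values rested on 82 to 170 counts in PUS10-OE and 38 to 63 counts in Vector. Its log2 fold change of 1.08 had a 95% interval of -0.21 to 2.37 (edgeR adjusted p = 0.714). Shq1, the chaperone that binds dyskerin before assembly, had 44.2, 43.0 and 45.1 CPM in PUS10-OE, inside the 40.8, 66.0 and 48.1 CPM of Vector. The groups were thus apart for 3 of the 10 members, Nhp2, Nop10 and Naf1, all higher in PUS10-OE, where 8.31% of all genes tested were higher without overlap and 15.1% did not overlap in either direction.

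The RluA-type synthases overlapped between PUS10-OE and Vector. Rpusd2 had 19.97, 9.10 and 9.50 CPM in PUS10-OE and 19.6, 14.8 and 14.5 CPM in Vector (log2 fold change -0.34, 95% interval -1.13 to 0.45, edgeR adjusted p = 0.906). Rpusd1 had 29.0, 21.2 and 45.2 CPM in PUS10-OE and 21.1, 27.0 and 34.5 CPM in Vector, with an interval of -0.49 to 0.91. Rpusd4 was the most narrowly bounded of the 4, at 0.04 with an interval of -0.35 to 0.42, and Rpusd3 stood at -0.03 with an interval of -0.81 to 0.75. Proliferation markers summed to 1931 to 2602 CPM in PUS10-OE and 1640 to 2078 CPM in Vector, and 4 of 4 megakaryocyte markers were detected in every library and summed to 247 to 418 CPM in PUS10-OE and 148 to 178 CPM in Vector. Their part in the levels of Nhp2 and Nop10 was not tested.

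**Figure D3:**
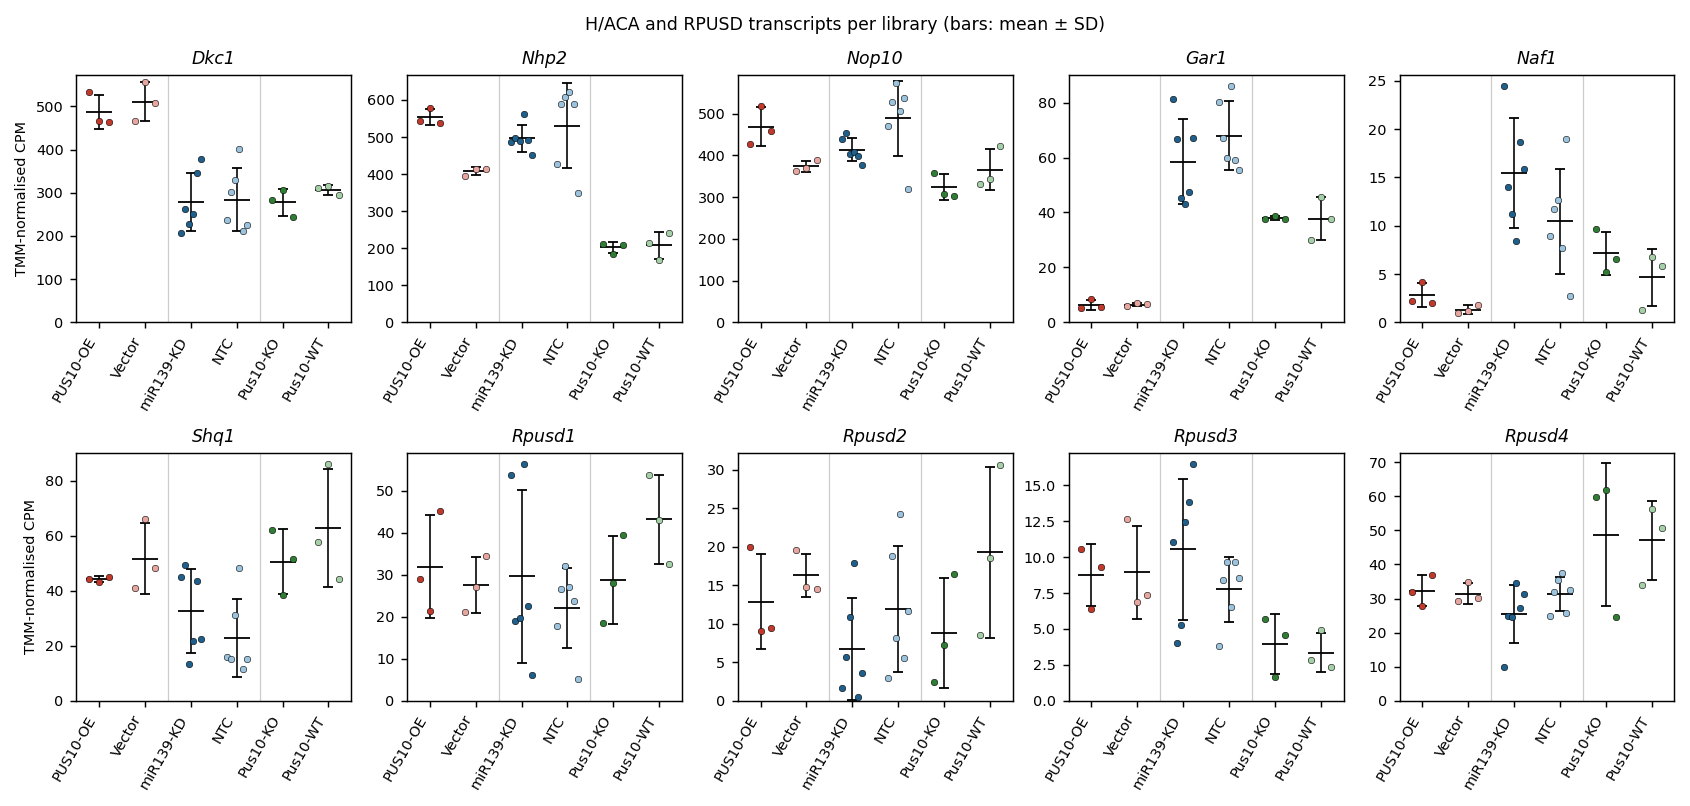
TMM-normalised CPM of each member in every library (points), by group, with the mean and SD as bars. Nhp2, Nop10 and Naf1 are separated between PUS10-OE and Vector, while the groups of every member overlap in the other 2 experiments.

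The second comparison asks whether the members responded to knockdown of miR-139. No member was called: 0 of 10 passed by edgeR, where 361 of 13295 genes did (2.72%). An unadjusted p under 0.05 was found for 0 of 10, where 2133 genes had one (16.044%). DESeq2 called 1100 of 15941 genes (6.90%) and 0 members. All 10 members overlapped between miR139-KD and NTC, where 3.42% of genes tested did not. The median log2 fold change was -0.06 for the members and 0.02 for all genes tested. All 4 core genes had a negative value and 4 of the 10 members a positive one, against 51.4% of all genes.

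Nop10 had the lowest p of the members. It ranged from 378 to 454 CPM with a median of 406 in miR139-KD, against 320 to 574 CPM with a median of 517 in NTC. All 6 miR139-KD libraries lay below 5 of the 6 NTC libraries, and NTC replicate 6, at 320 CPM, lay below all of them. The log2 fold change was -0.24 (SE 0.118, 95% interval -0.50 to 0.01, edgeR adjusted p = 0.335). Without NTC replicate 6 it was -0.34 with an edgeR adjusted p of 0.0352, so this 1 library decides the call. Leaving out any other single library gave no call of Nop10. NTC replicate 6 was also the lowest NTC library for Nhp2 (349 CPM), Gar1 (55.6 CPM), Naf1 (2.74 CPM) and Rpusd1 (5.26 CPM). It was not the lowest for Dkc1, Shq1, Rpusd2, Rpusd3 or Rpusd4. It had 15884 genes detected, the fewest of the NTC libraries, while miR139-KD replicates 1 and 6 had 15669 and 15575. Dixon's outlier test on the CPM of 34 sets of 1 gene in 1 group, Nop10 in NTC among them, flagged 0, so the library was kept.

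Nhp2 ranged from 451 to 562 CPM with a median of 490.1 in miR139-KD, against 349 to 622 CPM with a median of 590 in NTC (log2 fold change -0.10, 95% interval -0.37 to 0.18, edgeR adjusted p = 0.803). Dkc1 ranged from 208 to 378 CPM in miR139-KD and from 212 to 401 CPM in NTC, with medians of 258 and 269.9 CPM in miR139-KD and NTC, and the interval of its difference was -0.41 to 0.36. Gar1 ranged from 43.0 to 81.3 CPM with a median of 57.2 in miR139-KD, against 55.6 to 86.2 CPM with a median of 63.4 in NTC (interval -0.62 to 0.19). For these 3 core genes the spread within NTC or within miR139-KD was wider than the difference of the group means.

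Both assembly factors had positive values that did not pass the test. Shq1, which carries the match to the 3p seed, ranged from 13.3 to 49.4 CPM with a median of 33.0 in miR139-KD, against 11.4 to 48.1 CPM with a median of 15.5 in NTC (log2 fold change 0.51, SE 0.405, 95% interval -0.35 to 1.38, edgeR adjusted p = 0.606). Naf1 ranged from 8.40 to 24.5 CPM with a median of 15.0 in miR139-KD, against 2.74 to 19.0 CPM with a median of 10.3 in NTC (0.56, interval -0.33 to 1.46, edgeR adjusted p = 0.575). The groups overlapped for both genes.

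The RluA-type synthases did not pass either. Rpusd2 was the most scattered, from 0.419 to 17.9 CPM in miR139-KD, where the lowest library held 6 counts, and from 2.94 to 24.3 CPM in NTC (log2 fold change -0.83, interval -2.41 to 0.75). Rpusd1 ranged from 6.15 to 56.4 CPM in miR139-KD and from 5.26 to 32.04 CPM in NTC (interval -0.62 to 1.47). Rpusd3 ranged from 4.03 to 16.5 CPM in miR139-KD and from 3.79 to 9.69 CPM in NTC (interval -0.47 to 1.35), and Rpusd4 from 9.89 to 34.5 CPM in miR139-KD and from 25.0 to 37.6 CPM in NTC (interval -0.86 to 0.26). Megakaryocyte markers (4 of 4 detected in every library) summed to 1088 to 2875 CPM in miR139-KD and 60.7 to 306 CPM in NTC. Neutrophil markers summed to 942 to 11466 CPM in miR139-KD and 1070 to 10536 CPM in NTC, and erythroid markers to 265 to 6434 CPM in miR139-KD and 114 to 6741 CPM in NTC. Their part in the values of the members was not tested.

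**Figure D4:**
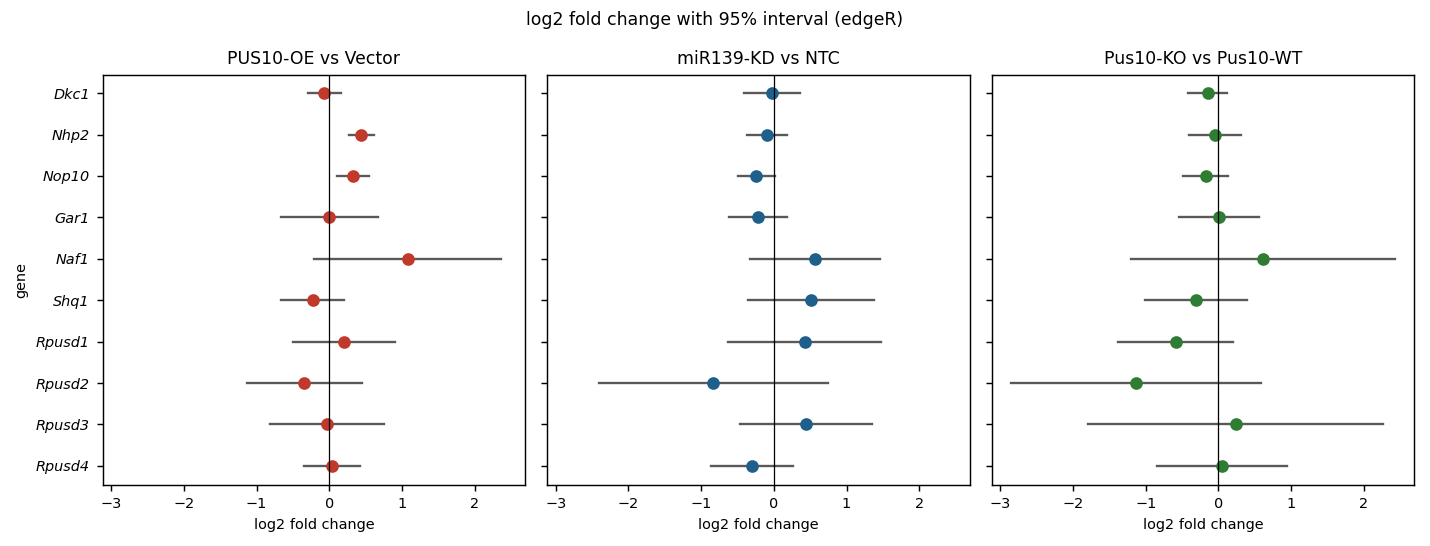
log2 fold change of each member in the 3 comparisons (dots, edgeR) with the 95% interval (lines); the vertical line marks 0. Only the intervals of Nhp2 and Nop10 in PUS10-OE against Vector leave out 0, before adjustment over all genes.

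The third comparison sets libraries labelled Pus10-KO against Pus10-WT. No member was called: 0 of 10 passed by edgeR, where 9 of 14657 genes did (0.0614%). An unadjusted p under 0.05 was found for 0 of 10, where 1006 genes had one (6.86%). DESeq2 called 237 of 16244 genes (1.46%) and 0 members. The groups overlapped for all 10 members, where 13.7% of genes tested did not. The median log2 fold change was -0.09 for the members and -0.00342 for all genes tested, and 4 of the 10 were positive, against 49.7% of all genes.

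Dkc1 had 282, 307 and 245 CPM in Pus10-KO and 311, 317 and 294 CPM in Pus10-WT (log2 fold change -0.15, 95% interval -0.41 to 0.12, edgeR adjusted p = 0.933). Nhp2 had 211, 185 and 209.6 CPM in Pus10-KO and 214, 169 and 242 CPM in Pus10-WT (interval -0.40 to 0.31), and Nop10 had 359, 308 and 304 CPM in Pus10-KO and 332, 344 and 423 CPM in Pus10-WT (interval -0.48 to 0.13). The 3 intervals reached from -0.48 to 0.31 on the log2 scale at their widest, before adjustment. Gar1 had 37.5, 38.8 and 37.5 CPM in Pus10-KO, inside the 29.9, 45.6 and 37.8 CPM of Pus10-WT (interval -0.54 to 0.56).

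The lowest point estimate among the members was that of Rpusd2, with 2.47, 7.29 and 16.5 CPM in Pus10-KO and 8.59, 18.5 and 30.7 CPM in Pus10-WT. Its log2 fold change of -1.13 had an interval of -2.85 to 0.59 (edgeR adjusted p = 0.897). Rpusd1 had 18.5, 28.0 and 39.4 CPM in Pus10-KO and 53.8, 43.1 and 32.5 CPM in Pus10-WT (-0.59, interval -1.38 to 0.20, edgeR adjusted p = 0.855). In both genes the highest Pus10-KO library exceeded the lowest Pus10-WT library. Rpusd4 had 59.97, 61.8 and 24.4 CPM in Pus10-KO and 34.0, 56.4 and 50.9 CPM in Pus10-WT (interval -0.84 to 0.94), Rpusd3 had 5.68, 1.62 and 4.55 CPM in Pus10-KO and 2.80, 4.92 and 2.33 CPM in Pus10-WT (interval -1.79 to 2.27), with overlapping groups in both. Shq1 had 62.1, 38.3 and 51.3 CPM in Pus10-KO and 57.8, 86.2 and 44.1 CPM in Pus10-WT, and Naf1 had 9.62, 5.20 and 6.56 CPM in Pus10-KO and 1.24, 6.81 and 5.87 CPM in Pus10-WT. The low Pus10-WT library of Naf1 rested on 20 counts.

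The B and plasma cell list separated these groups: its 7 genes summed to 106 to 114 CPM in Pus10-KO, with 2 of the 7 at 0 in all libraries, and to 19094 to 27135 CPM in Pus10-WT. Erythroid markers summed to 246 to 4647 CPM in Pus10-KO and 210.2 to 229 CPM in Pus10-WT. The 5 neutrophil markers summed to 621 to 3429 CPM in Pus10-KO and 526 to 786 CPM in Pus10-WT, with Elane at a median of 731 CPM in Pus10-KO and 0.121 CPM in Pus10-WT and Mpo at 697 CPM in Pus10-KO and 0.0607 CPM in Pus10-WT. Their part in the values of the members was not tested. The comparison therefore sets the members in libraries that differ in markers of other cell types as well as in their label.

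Genes that work beside the members were read from 6 lists: the other pseudouridine synthases, the R2TP chaperone that helps assemble the particles, the partners of RPUSD4 on mitochondrial ribosomal RNA, telomerase, nucleolar and Cajal body proteins, and the box C/D proteins, which guide methylation. In PUS10-OE against Vector 0 of the 7 synthases, 4 R2TP genes, 4 mitochondrial partners, 2 telomerase genes, 4 nucleolar genes and 4 box C/D genes tested were called by edgeR. Of all genes in that fit 0 of 14834 were called, and the overexpressed Pus10 is 1 of the 7 synthases. The lack of calls is thus not particular to these lists. Pus3 and the telomerase RNA Terc did not pass the filter on low counts in any fit, and Terc had 0 counts in all 24 libraries. The lowest p of the box C/D list in that comparison was that of Snu13, which belongs to the same protein family as Nhp2, with 448 ± 68.6 CPM in PUS10-OE and 369 ± 11.7 CPM in Vector (SD, n = 3 each; log2 fold change 0.28, edgeR adjusted p = 0.606). Fastkd2 (log2 fold change 0.32, edgeR adjusted p = 0.499), Ruvbl2 (0.14, 0.776), Coil (-0.49, 0.697) and Tert (-0.98, 0.776) had the lowest p of the other lists.

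In miR139-KD against NTC 2 genes of these lists were called by edgeR, both lower, where 2.72% of all genes tested were called in either direction. The pseudouridine synthase Pusl1 ranged from 5.37 to 23.1 CPM in miR139-KD, against 32.3 to 57.1 CPM in NTC, without overlap (-1.55, SE 0.311, edgeR adjusted p = 0.0162), and was 1 of 7 synthases tested. The box C/D core protein gene Nop56 ranged from 248 to 307 CPM in miR139-KD, against 298 to 465 CPM in NTC (-0.51, SE 0.118, edgeR adjusted p = 0.0318), and was 1 of 4 box C/D genes tested. Its call was lost without any 1 of NTC replicates 2, 3, 4 and 5 and miR139-KD replicates 1, 2, 3 and 6, with edgeR adjusted p values up to 0.0837. The other box C/D genes stood at -0.01 to -0.14. Ngrn (log2 fold change 0.67, edgeR adjusted p = 0.157), Wrap53, which carries telomerase to Cajal bodies (-0.72, 0.185), Ruvbl1 (-0.43, 0.247) and Nolc1 (-0.13, 0.787) had the lowest p of the other lists. Leaving out NTC replicate 1 gave Ruvbl1 an edgeR adjusted p of 0.0287, and 0 of the R2TP, mitochondrial, telomerase and nucleolar genes were called with all libraries.

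In Pus10-KO against Pus10-WT 0 genes of the 6 lists were called by edgeR, where 9 of all 14657 genes tested were (0.0614%). With so small a share, 0 calls is not particular to these lists. Trub2, a synthase that also acts on mitochondrial RNA in human cells, had 16.6 ± 6.41 CPM in Pus10-KO and 35.9 ± 9.69 CPM in Pus10-WT (SD, n = 3 each; log2 fold change -1.11, edgeR adjusted p = 0.567). Ruvbl1 (log2 fold change -0.29, edgeR adjusted p = 0.559), Nolc1 (-0.45, 0.727), Tert (-1.16, 0.882) and Nop56 (-0.25, 0.902) had the lowest p of the other lists. All 4 R2TP genes had negative values, from -0.81 to -0.19.

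**Figure D5:**
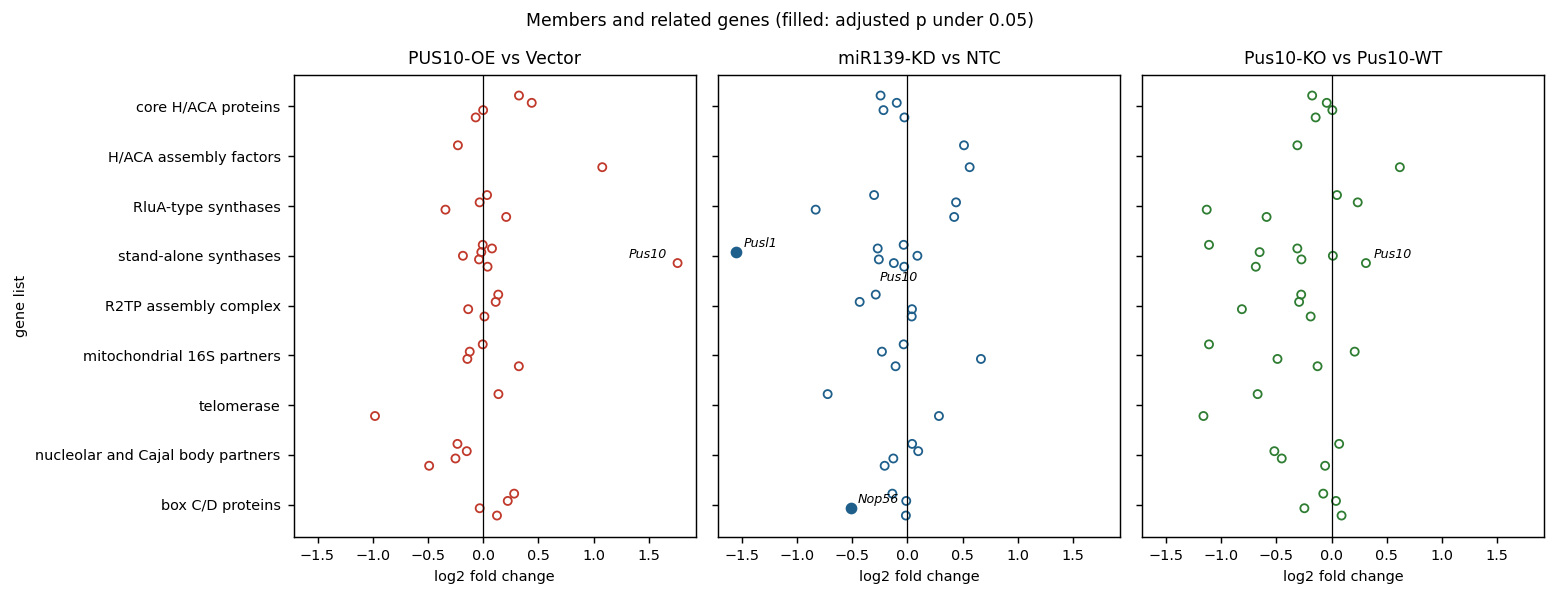
log2 fold change (edgeR) of the members and of the genes of the related lists, 1 row per list and 1 panel per comparison; filled points have an adjusted p under 0.05 over all genes. The 2 filled points are Pusl1 and Nop56 in miR139-KD against NTC, and no point of the 10 members is filled.

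Within groups, the levels of Nhp2 and Nop10 moved together. Across the 24 libraries, after the mean of each group was subtracted, log2(CPM + 1) of the pair had a Pearson r of 0.81 and a Spearman rho of 0.72. Without the 2 libraries farthest from the median in Nhp2 r was 0.63, and without NTC replicate 6 alone it was 0.65. Nop10 and Naf1 gave an r of 0.72 and a rho of 0.58, and an r of 0.56 without NTC replicate 6. Dkc1 and Rpusd4 gave an r of 0.57 and a rho of 0.58, and an r of 0.60 without NTC replicate 6. Nhp2 and Dkc1, whose proteins share a particle, gave an r of 0.28, and 0.15 without NTC replicate 6, and Nhp2 and Gar1 an r of -0.05, and -0.26 without it. These values, from 45 pairs of members, describe libraries that share preparation and depth, and carry no test. Among 12298 other genes tested in all 3 comparisons, the 5 whose deviations were most like the mean of the 4 core genes were Tmem41a (r = 0.83), Mt1 (r = 0.83), Ythdc2 (r = 0.83), Tbl3 (r = 0.82) and Ubqln4 (r = 0.80). Without NTC replicate 6 these 5 values lay between 0.64 and 0.70.

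The abundance of the RNAs that the H/ACA proteins carry could not be judged from these counts. A list of 52 annotated genes, Terc and those with names beginning Snora or Scarna, was made after the files were seen. It held 368 to 386 counts in PUS10-OE and 331 to 511 in Vector. It held 144 to 251 in miR139-KD, 155 to 299 in NTC, 161 to 190 in Pus10-KO and 176 to 217 in Pus10-WT. The list went by name alone, so it may hold RNAs of other classes and leaves out RNAs under other names. How well these libraries capture such RNAs was not assessed, so low counts, as for Terc, do not show that they were scarce. Pseudogenes at least 90% identical over at least 300 bases were found for 4 members, Dkc1, Gar1, Naf1 and Nhp2, and drew at most 39 counts over the 24 libraries. The summary entry for reads with several alignments is 0 in all 24 libraries, so reads lost to near copies cannot be seen; the copy of Naf1, Gm2027, is 92.6% identical over 1546 bases. Dkc1 shares 45 exon bases with Mpp1 and Nhp2 44 with Rmnd5b, and the members other than these and Rpusd3 share none.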

How the data were processed

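RNA of sorted HSCs was copied by Smart-seq2, amplified and tagmented, per the labels' protocols, so strand was not marked. The authors deposited raw read counts for each gene, whole numbers with no scaling. HISAT2 2.1.0, HTSeq 0.11.2, DESeq2 (no version) and mm10 are named, per the submitters' processing notes; for the annotation release used in counting the sources used here give none. GENCODE M21 (GRCm38) supplied symbols, coordinates and exon lengths and matched 55394 of 55487 IDs. Summary entries stayed out of library sizes: 3.70% to 12.0% of reads fell in no feature and 6.53% to 20.1% were ambiguous.

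The 3 comparisons were fitted separately, each on its 2 groups, with edgeR 4.0.16 (R 4.3.3): filterByExpr, TMM scaling, robust quasi-likelihood F tests, two-sided, adjusted by Benjamini-Hochberg over all genes tested, threshold 0.05. SEs and 95% intervals came from the F statistic. All 10 members passed the filter in all 3 fits. TPM were computed from the counts and summed exon length. The fits were tested on simulated counts. Alternatives were DESeq2 1.42.0, other scalings and filters, a fit of all 6 groups together, the replicate number as a block, and leaving out each library in turn. Near copies were found with blastn 2.17.0, and figures were drawn with matplotlib 3.10.9.

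The 42 pairs of libraries within a group differed beyond sampling noise, with a chi-square per degree of freedom of at least 31.9. Separate animals are not stated, so the p-values reflect variation between libraries that may be technical. Counts without molecular identifiers give counting error only. The members, lists and tests were chosen with earlier results of these data known. Named were the members, Pus10, Pde2a, the genes of each related list that were called or had the lowest p in a comparison, and the 5 genes most like the mean of the core genes.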

Additional observations from a re-analysis of the deposited data

How the results depend on the processing

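Of the values of the 10 members under the alternatives, 415 kept their direction and side of the threshold, 26 changed sign and 2 passed the threshold. The 2 were Nhp2 in PUS10-OE by DESeq2, which made the count of changed members 1, and Nop10 in miR139-KD without NTC replicate 6, so that leaving out 1 library gave 0 to 1 changed members there. Changed genes in PUS10-OE against Vector numbered 251 by DESeq2, 9 with a filter of 10 CPM and 4 with all 6 groups in 1 fit. In miR139-KD against NTC they numbered 1100 by DESeq2, 188 with the replicate block, 776 with all 6 groups in 1 fit and 196 to 340 without 1 library. In Pus10-KO against Pus10-WT they numbered 237 by DESeq2, 2 with the replicate block, 17 with all 6 groups in 1 fit and 0 to 10 without 1 library. The cause was not tested.

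Scaled by library size only, Rpusd4 in PUS10-OE was -0.013 and Nhp2 in Pus10-KO was 0.019. With all 6 groups in 1 fit Gar1 in PUS10-OE was 0.0077, and with the replicate block Rpusd4 in Pus10-KO was -0.030. Without 1 library, log2 fold changes in PUS10-OE ran from -0.19 to 0.30 for Rpusd3, -0.088 to 0.13 for Rpusd4, -0.26 to 0.14 for Gar1 and -0.15 to 0.43 for Rpusd1. Dkc1 in miR139-KD ran from -0.13 to 0.10. In Pus10-KO they ran from -0.14 to 0.16 for Gar1, -0.16 to 0.37 for Rpusd4, -0.18 to 0.073 for Nhp2 and -0.12 to 0.62 for Rpusd3. Nhp2 in PUS10-OE stayed between 0.39 and 0.45 and Nop10 between 0.24 and 0.39 under all 13 alternatives.

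Same-numbered libraries of the 2 groups did not deviate together (correlations -0.10 to 0.02). Low correlations cannot exclude a pairing, because paired samples may share little variation, so whether the numbers pair the samples is not settled. With the replicate block the edgeR adjusted p of Nop56 in miR139-KD was 0.0586. Pus10 itself, at an edgeR adjusted p of 0.278 in PUS10-OE, passed by DESeq2 (7.46e-15), with a filter of 10 CPM (0.00120) and with all 6 groups in 1 fit (0.00281).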
